A study of Homo sapiens with 6 samples.

Results

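The RFX family is a group of transcription factors that share a winged-helix DNA-binding domain and bind the X box, a short element built from half-sites of the GTTGCC kind. The genes described here were RFX1 to RFX7 together with RFXAP and RFXANK, the partner subunits that join RFX5 on the promoters of major histocompatibility complex (MHC) class II genes. Members were taken as all probe sets of the array whose only gene symbol was one of these names, which gave 9 genes of 18404 measured genes, each with 1 probe set. The family was chosen by a measured value, since RFX3 had passed the threshold on the adjusted p-value in the comparison of DLD-1/DKK1 with DLD-1/Mock. The differences of the members in that comparison are therefore descriptions: their intervals show the error of each value, and adjusted p-values are given only for the threshold that chose RFX3.

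RFX1, RFX2 and RFX3 are close relatives that bind the promoters of genes needed to build cilia, and in mice loss of RFX3 affects nodal cilia and the endocrine cells of the pancreatic islet. RFX4 and RFX6 have narrower roles, RFX4 in the developing brain and RFX6 in islet and enteroendocrine cells, while RFX5 works with RFXAP and RFXANK on MHC class II promoters under the co-activator CIITA. RFX7 is the relative studied mainly in lymphoid cells.

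The measurements came from DLD-1, a colorectal adenocarcinoma cell line with mutated APC, carrying a lentiviral Tet-on construct. In 3 DLD-1/DKK1 samples the construct expressed DKK1, a secreted antagonist of Wnt signalling, with eGFP translated from the same transcript. The 3 DLD-1/Mock samples carried the same vector without the gene. The methods describe a transduction that typically left most cells GFP-positive, and neither they nor the sample titles name a clone. Both lines were given doxycycline for a day (the labels give 10 mg/ml, the methods state the dose in micrograms per ml), and the methods describe the samples as independent dishes. DKK1 itself gave 12.30, 12.38 and 12.36 on the log2 scale in DLD-1/DKK1, against 5.15, 5.74 and 5.01 in DLD-1/Mock, a 132-fold difference that matched the labels. Array medians were 6.79, 6.76 and 6.81 in DLD-1/DKK1, against 6.82, 6.86 and 6.82 in DLD-1/Mock. Every DKK1 array thus had a lower median than every Mock array, and median centring shifted the median difference of all probe sets by 0.0524. The second Mock array stood apart slightly, with correlations of 0.9953 to 0.9969 with the other arrays. The epithelial identity of the line was checked with 10 markers, whose median lay at the 96.0th percentile of brightness, with EPCAM at the 98.7th and KRT20 lowest at the 32.8th. The median of 8 leukocyte markers lay at the 41.6th percentile. In a bulk measurement, fewer cells of a type and less RNA per cell cannot be told apart. Brightness differs between probe sets for technical reasons, so levels were compared between groups and not between genes, and a member's place is given only as the percentage of all probe sets that were dimmer.

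RFX3 was the member with the largest difference. It gave 7.14, 7.14 and 7.07 in DLD-1/DKK1, against 6.72, 6.69 and 6.71 in DLD-1/Mock. The groups were separated by a gap of 0.35 between the lowest DKK1 array and the highest Mock array. The residual SD of RFX3 was 0.03, against a median of 0.074 for all probe sets. Because RFX3 was chosen on this comparison, its gap is no support for the difference. The means were 7.12 ± 0.04 in DLD-1/DKK1 and 6.71 ± 0.02 in DLD-1/Mock (SD, n = 3 each), a difference of 0.41 (SE 0.04, 95% interval 0.32 to 0.51), or 1.33-fold (1.25 to 1.42). The absolute difference ranked 289th among 32321 probe sets, which placed it in the top 0.894%. RFX3 lay at the 51.3rd percentile of brightness over the 6 arrays and between the 47.8th and the 54.5th percentile on single arrays. It was the only member past an adjusted p of 0.05, with 0.0432, and the next member, RFX1, stood at 0.453. For the whole array, limma called 28 probe sets (0.0866%), of which 12 were higher in DLD-1/DKK1 (0.0371%), and nothing is read from the 1 member called of 9 because the call chose the family. The difference of RFX3 kept its sign in all 15 alternative settings and ran from 0.40 to 0.47. It was highest where the arrays were rescaled. Probe set filters, other variance settings and the replicate block could not change the difference itself. The adjusted p of RFX3 stayed under the threshold in 4 of the 15, and in none of the 6 settings that left out an array. Among the 4 was the setting with brighter probe sets only, whose filter RFX3 passed through its DLD-1/DKK1 values.

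**Figure D1:**
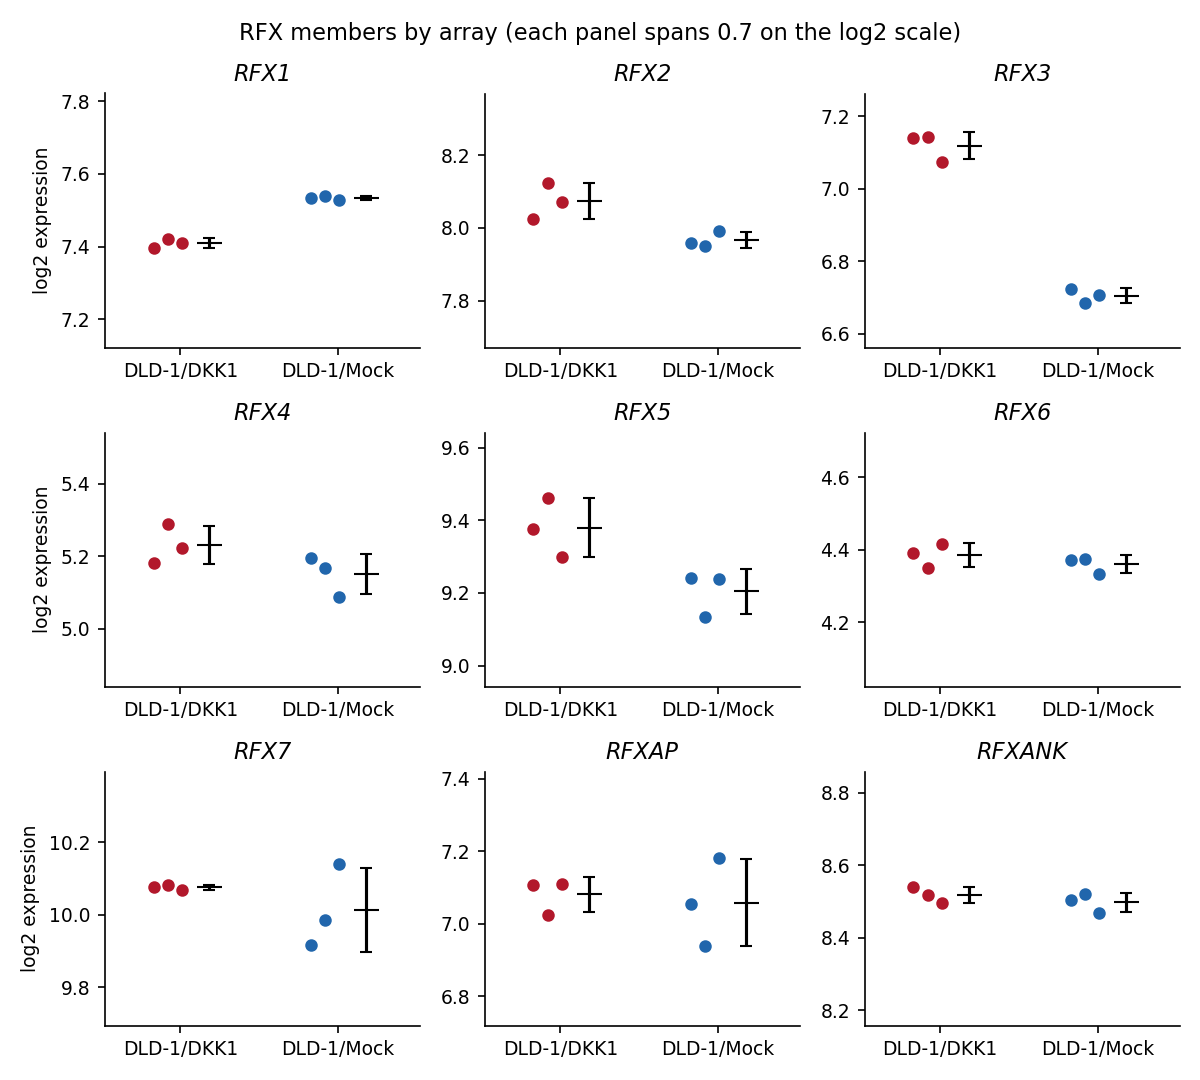
Log2 expression of the 9 members in each of the 3 DLD-1/DKK1 arrays (red, left in each panel) and the 3 DLD-1/Mock arrays (blue, right), with the group mean and SD in black; every panel spans the same range of the log2 scale. RFX3 shows the widest gap between the groups, RFX1 a narrow one in the other direction, and RFX7 and RFXAP a wide spread among the Mock arrays.

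The close relatives of RFX3, which were not chosen by their own values, had smaller differences. RFX1, the founding member of the family, gave 7.39, 7.42 and 7.41 in DLD-1/DKK1, against 7.53, 7.54 and 7.53 in DLD-1/Mock. All DKK1 arrays lay below all Mock arrays, and both groups were tight, with means of 7.41 ± 0.01 and 7.53 ± 0.01 (SD, n = 3 each). The difference was -0.12 (SE 0.04, interval -0.21 to -0.04), or 0.917-fold, and RFX1 was the 1 member that averaged lower in DLD-1/DKK1. After median centring the difference of RFX1 was -0.07. RFX2, required for sperm cilia and flagella in mice, gave 8.02, 8.12 and 8.07 in DLD-1/DKK1, against 7.96, 7.95 and 7.99 in DLD-1/Mock. Its groups did not overlap either, and the difference was 0.11 (SE 0.04, interval 0.00 to 0.21). RFX1 and RFX2 both lie on chromosome 19, together with RFXANK, while RFX3 lies on chromosome 9.

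The MHC class II complex came next. RFX5, its DNA-binding subunit, gave 9.38, 9.46 and 9.30 in DLD-1/DKK1, against 9.24, 9.13 and 9.24 in DLD-1/Mock. The groups did not overlap, and the difference of 0.18 (SE 0.06, interval 0.04 to 0.31) was the largest after that of RFX3. The partner RFXAP gave 7.11, 7.02 and 7.11 in DLD-1/DKK1, against 7.06, 6.94 and 7.18 in DLD-1/Mock, and RFXANK gave 8.54, 8.52 and 8.50 in DLD-1/DKK1, against 8.50, 8.52 and 8.47 in DLD-1/Mock. Both partners overlapped between the groups, with differences of 0.02 (interval -0.14 to 0.19) for RFXAP and 0.02 (-0.07 to 0.11) for RFXANK. RFXAP took the opposite sign in 2 of 15 alternative settings, array weights (-0.00127) and without the second Mock array (-0.0369).

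RFX4, RFX6 and RFX7 overlapped between the groups as well. RFX4 gave 5.18, 5.29 and 5.22 in DLD-1/DKK1, against 5.20, 5.17 and 5.09 in DLD-1/Mock, a difference of 0.08 (interval -0.04 to 0.20). RFX6, the islet factor, was the dimmest member at the 10.5th percentile, with 4.39, 4.35 and 4.42 in DLD-1/DKK1, against 4.37, 4.38 and 4.33 in DLD-1/Mock. RFX7 was the brightest at the 84.6th percentile and gave 10.08, 10.08 and 10.07 in DLD-1/DKK1, against 9.92, 9.98 and 10.14 in DLD-1/Mock. Its Mock arrays spread more widely than its DKK1 arrays, and the difference was 0.06 (interval -0.09 to 0.21), with 0.0139 without the first Mock array and 0.126 without the third. With an array left out, the differences ran from 0.0498 to 0.105 for RFX4, 0.0102 to 0.0427 for RFX6 and 0.00576 to 0.0322 for RFXANK.

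**Figure D2:**
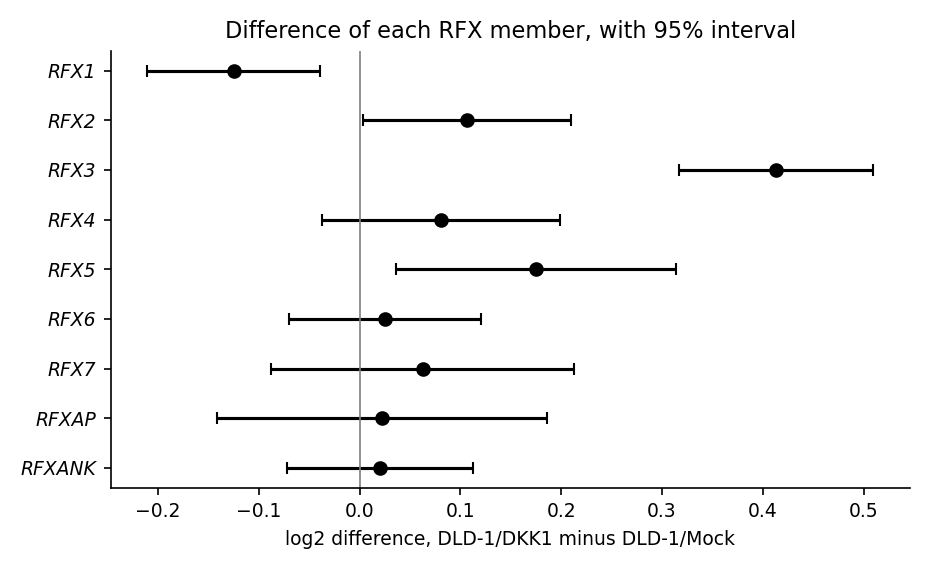
Difference of each member on the log2 scale, DLD-1/DKK1 minus DLD-1/Mock, with its 95% interval from limma (n = 3 arrays per group). RFX3 stands at 0.41, RFX1 at -0.12, and 5 of the 9 intervals include 0.

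Over the family, 8 members gave a higher mean in DLD-1/DKK1 and 1 a lower one, with a median difference of 0.06. Without RFX3, the median absolute difference of the other 8 members was 0.0717, against 0.0587 for all probe sets. The groups did not overlap for 4 of the 9 members (RFX1, RFX2, RFX3 and RFX5), and for 3 of 8 without RFX3, which had been chosen on this comparison. Of all probe sets, 16.5% showed no overlap. Signs varied with brightness across the array. Of probe sets with 1 gene symbol, 55.8% above the median brightness and 31.8% below it averaged higher in DLD-1/DKK1, and 7 members lay above it. RFX8 and ARID2, the other genes with an RFX-type domain, had differences of 0.03 and 0.02 and overlapped between the groups.

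The profile of RFX3 was compared with 4041 probe sets whose values spanned at least 0.3 over the 6 arrays, by Pearson correlation. The 2 groups of arrays dominate such a correlation, and it is given as a description of likeness. The closest profiles were those of PROS1 (r = 0.995), the anticoagulant protein S, PLBD1 (0.995), a phospholipase B-like protein, CST1 (0.994), a cystatin protease inhibitor, L3MBTL4 (0.994), an MBT-domain protein, and LIPG (0.993), endothelial lipase. The most opposite were UNC13D (-0.997), a factor of granule exocytosis, GDPD3 (-0.997), a lysophospholipase, EREG (-0.992), the growth factor epiregulin, RAC2 (-0.992), a small GTPase, and ERN2 (-0.991), an endoplasmic reticulum stress sensor of mucosal epithelium. After the group means were removed, r ran from 0.69 (LIPG) to 0.95 (PROS1) for the closest genes. For the most opposite it ran from -0.22 (RAC2) to -0.87 (UNC13D). CST1, GDPD3 and RAC2 also passed the adjusted threshold, as did 0.0866% of all probe sets. RFX3 was chosen on this comparison, so genes picked for likeness to it were bound to differ between the groups. Nothing is read from these calls. CST1 kept its call in 9 of 15 alternative settings, RAC2 in 7 and GDPD3 in 6, and with an array left out only CST1 kept it, when that array was the second Mock array (adjusted p = 0.0473, limma). CST1 gave 11.76, 11.76 and 11.75 in DLD-1/DKK1, against 11.17, 11.17 and 11.18 in DLD-1/Mock (adjusted p = 0.0100, limma). Among the members, RFX1 had the strongest correlation with RFX3, in the opposite direction (r = -0.987, and -0.21 after the group means were removed). Of those with a positive correlation, RFX5 followed RFX3 most closely (r = 0.88), also after the group means were removed (r = 0.85), and RFX2 reached 0.86 but only 0.07 after the group means were removed. RFX6 then had -0.60. These values rest on 6 arrays, over which the deviations of RFX3 spanned only 0.067. The median residual SD of all probe sets was 0.074, so no shared variation is read from them.

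The genes beside RFX3 on chromosome 9 had smaller differences than RFX3, which had been chosen on this comparison while they had not. Of the 10 measured neighbours, 5 on each side, 5 gave a higher mean in DLD-1/DKK1 and 5 a lower one. Of these 10, 0 passed the adjusted threshold in limma. Their differences ran between -0.16 and 0.18, against 0.41 for RFX3. VLDLR, a lipoprotein receptor, came nearest at 8.27, 8.29 and 8.15 in DLD-1/DKK1, against 8.07, 8.02 and 8.09 in DLD-1/Mock, a difference of 0.18 (adjusted p = 0.462). GLIS3-AS1, antisense to the islet factor GLIS3, had a difference of -0.16 (adjusted p = 0.524), and GLIS3 itself one of -0.03. VLDLR and GLIS3-AS1 were the 2 neighbours with an unadjusted p under 0.05, which 9.23% of all probe sets reached. GLIS3, VLDLR-AS1 and SLC1A1 changed sign in some alternative settings.

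**Figure D3:**
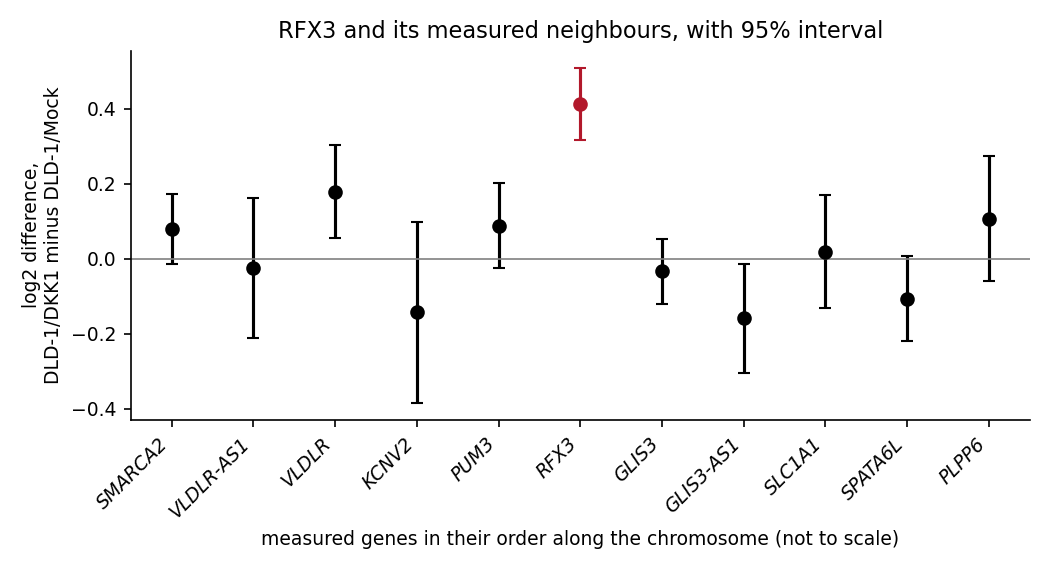
Log2 difference, DLD-1/DKK1 minus DLD-1/Mock, with 95% interval, for RFX3 (red) and the 5 measured genes on each side of it in chromosomal order, not to scale. RFX3 stands at 0.41, and the neighbours lie between -0.16 for GLIS3-AS1 and 0.18 for VLDLR.

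The start regions of the family were examined for the half-sites that RFX proteins bind. The windows ran from 250 bases before to 50 bases after an annotated start (RefSeq, GRCh38.p14), 7 of the 9 members were in the table with 15 windows, and RFX2 and RFX6 were not. The half-sites searched were GTTGCC and GTTGCTA on both strands, and GTTGCC followed after 2 free bases by GGNAAC, which overlaps the first. In 4 of 15 windows (26.7%) either half-site was found, against 14.6% of all 35116 windows. RFX1, RFX4 and RFX7 held the matches, and the windows of RFX3, RFX5, RFXAP and RFXANK held none. The sequences of RFX1, RFX4 and RFX3 are shown, the first pair because they carry both arrangements of half-sites and the third because it is the member with the largest difference; capitals mark the matched stretch, which in the paired form of RFX4 includes the 2 free bases.
RFX1 (chr19:14006271-14006570, - strand): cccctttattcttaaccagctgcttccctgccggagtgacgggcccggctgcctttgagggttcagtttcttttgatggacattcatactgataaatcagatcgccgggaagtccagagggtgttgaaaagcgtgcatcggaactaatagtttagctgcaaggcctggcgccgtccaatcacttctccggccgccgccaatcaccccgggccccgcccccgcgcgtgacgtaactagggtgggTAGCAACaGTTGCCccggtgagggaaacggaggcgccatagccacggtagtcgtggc
RFX4 second window (chr12:106600898-106601197, + strand): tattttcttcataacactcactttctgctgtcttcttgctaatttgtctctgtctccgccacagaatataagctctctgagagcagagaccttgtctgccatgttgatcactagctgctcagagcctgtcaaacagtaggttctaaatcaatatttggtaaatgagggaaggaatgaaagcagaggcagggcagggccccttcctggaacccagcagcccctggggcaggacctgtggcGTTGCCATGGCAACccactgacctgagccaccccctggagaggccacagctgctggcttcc
RFX3 first window (chr9:3525952-3526251, - strand): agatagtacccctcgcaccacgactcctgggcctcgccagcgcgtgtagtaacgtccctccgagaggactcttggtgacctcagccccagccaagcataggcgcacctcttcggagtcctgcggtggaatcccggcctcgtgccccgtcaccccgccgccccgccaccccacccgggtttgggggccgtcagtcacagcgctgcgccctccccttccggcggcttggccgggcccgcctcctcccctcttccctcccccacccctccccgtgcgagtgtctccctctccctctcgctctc
In RFX1, the longer half-site, read on the opposite strand, and GTTGCC lay at the start itself with a single base between them, their first bases at -7 and 1 relative to the start base, which was counted as 0. The RFX4 window held the paired form from base -11, which was present in 0.362% of all windows. A match of letters is not a bound site, and a window without them says nothing about RFX binding.

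Genes around the known roles of RFX factors were then described as lists. Among the 127 measured listed genes other than the members, 0 passed the adjusted threshold in limma and 12 had an unadjusted p under 0.05, a value that 9.23% of all probe sets reached. Of 29 intraflagellar transport and basal body genes, 24 gave a higher mean in DLD-1/DKK1 and 5 a lower one. Their median difference was 0.09 (0.0273 without the second Mock array, 0.138 after median centring). Of these genes, 22 lay between the median and the upper quartile of brightness, where 45.6% of all single-symbol probe sets were higher in DLD-1/DKK1, and 5 lay above that quartile, where 66.1% were. WDR35, a retrograde transport subunit, gave 7.25, 7.11 and 7.05 in DLD-1/DKK1, against 6.93, 6.84 and 6.97 in DLD-1/Mock, a difference of 0.22 (adjusted p = 0.465). IFT122, of the same complex, had a difference of 0.13 (adjusted p = 0.501), with 7.56, 7.51 and 7.43 in DLD-1/DKK1, against 7.36, 7.37 and 7.37 in DLD-1/Mock. Neither overlapped between the groups, which held for 5 of the 29 genes of this list and for 16.5% of all probe sets.

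Of 26 motile cilium genes, 6 averaged higher and 20 lower, with a median of -0.04, and 22 of them lay below the median brightness. There, 31.8% of all single-symbol probe sets averaged higher. MYB, which acts early in multiciliated cells, had a difference of 0.13 (adjusted p = 0.496), DNAI2, a dynein arm chain, -0.11 (0.531), and TEKT1, a microtubule protein, -0.18 (0.534). FOXJ1, the master factor of motile cilia, gave 6.42, 6.46 and 6.48 in DLD-1/DKK1, against 6.47, 6.54 and 6.43 in DLD-1/Mock. The median of this list took the other sign, 0.0101, after median centring, and was -0.0181 after quantile normalisation, -0.0166 after cyclic loess, -0.0938 among brighter probe sets and -0.0640 without the third Mock array.

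Of 10 MHC class II genes with CIITA, 2 averaged higher and 8 lower, with a median of -0.03, and 7 lay below the median brightness. The median took the other sign after median centring (0.0227) or cyclic loess (0.00408), among brighter probe sets (0.0388) and without the second Mock array (0.00977). HLA-DPB1, a class II beta chain, gave 7.38, 7.57 and 7.32 in DLD-1/DKK1, against 7.17, 7.11 and 7.32 in DLD-1/Mock. The difference was 0.22 (adjusted p = 0.524), and the groups overlapped. This gene had 3 probe sets, of which only the brightest is given. Probe sets of this family share sequence between its members, so single values are uncertain. CIITA had a difference of -0.04, and among the partners of the complex NFYA, a subunit of NF-Y, had 0.13 (adjusted p = 0.541) and NLRC5, the class I co-activator, -0.14 (adjusted p = 0.511). Of 12 islet and enteroendocrine transcription factors, 1 averaged higher and 11 lower, with a median of -0.07, and 6 lay below the median brightness. This median was -0.0261 without the second Mock array, -0.118 without the third DKK1 array, -0.107 without the first Mock array and -0.0150 after median centring. FEV, a serotonergic and enteroendocrine factor, had -0.19 (adjusted p = 0.462). Of 13 endocrine hormone and secretory genes, 6 averaged higher and 7 lower, with a median of -0.02, and 10 lay below the median brightness. This median took the other sign with quantile normalisation (0.0128), median centring (0.0370) or cyclic loess (0.0111), among brighter probe sets (0.0840), and without the second Mock array (0.0163) or the second DKK1 array (0.0110). GIP, an incretin, had -0.19 (adjusted p = 0.443).

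Among markers of other cell types, 1 of 8 leukocyte genes averaged higher and 7 lower (list mean 5.79 to 5.81 in DLD-1/DKK1 and 5.87 to 5.95 in DLD-1/Mock). CD14 and CD68 had differences of -0.27 and -0.26 (adjusted p = 0.462 and 0.345), and the 8 genes lay between the 9.83rd percentile of brightness (PTPRC) and the 56.6th (CD68). Of fibroblast markers, 2 of 6 and of endothelial markers 0 of 5 averaged higher, and of 10 epithelial markers 6 did. Below the median brightness lay 7 leukocyte, 5 fibroblast, 5 endothelial and 1 epithelial marker. Of all single-symbol probe sets, 31.8% below that median and 55.8% above it averaged higher. All samples were cultures of the DLD-1 line. Any part of other cell types in the differences of the RFX genes was not tested.

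**Figure D4:**
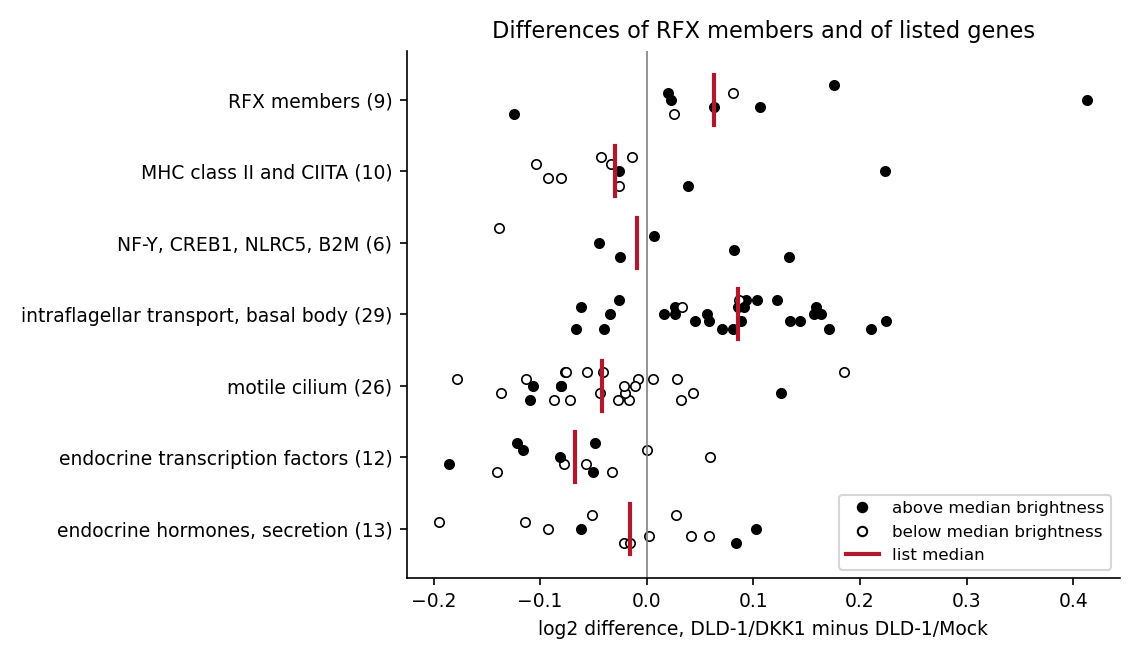
Log2 difference, DLD-1/DKK1 minus DLD-1/Mock, of every measured gene in each list (points, filled above the median brightness, open below it), with the list median as a red bar and the number of genes in brackets. RFX3, the point at 0.41, was chosen on this comparison, so its distance from the other lists is no finding. The intraflagellar transport and basal body genes have the highest median, 0.09.

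Half-sites were frequent in the windows of the ciliary lists. They were found in 18 of 31 windows of intraflagellar transport and basal body genes (58.1%) and in 18 of 26 windows of motile cilium genes (69.2%), against 14.6% of all windows. None of the 12 MHC class II windows held either form. Stretches around the matches in 4 of these genes are shown, because they carry the half-site beside genes named above or, for IFT81 and CCNO, in the opposed and the paired arrangement; capitals mark the matched stretch, with the 2 free bases of the paired form in CCNO.
IFT122 (chr3:129440197-129440232, + strand): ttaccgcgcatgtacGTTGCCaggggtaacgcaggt
IFT81 (chr12:110124334-110124370, + strand): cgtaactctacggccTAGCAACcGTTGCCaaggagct
TEKT1 (chr17:6831756-6831791, - strand): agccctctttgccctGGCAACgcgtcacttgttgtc
CCNO (chr5:55233825-55233858, - strand): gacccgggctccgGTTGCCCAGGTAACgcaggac
The opposed arrangement of IFT81 was the same as in RFX1, with a single base between the half-sites. IFT81 had a difference of 0.09 and gave 6.38, 6.46 and 6.42 in DLD-1/DKK1, against 6.37, 6.28 and 6.34 in DLD-1/Mock. CCNO, a cyclin of multiciliated cells, had a difference of -0.11. Over all measured genes with a promoter window, the median difference was -0.002 for the 2764 genes with a half-site and -0.004 for the 11466 without. Within the intraflagellar list the medians were 0.09 for 14 genes with a half-site and 0.08 for 12 without, and within the motile cilium list they were -0.06 for 16 genes with a half-site and 0.006 for 5 without. These differences between medians were not tested.

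**Figure D5:**
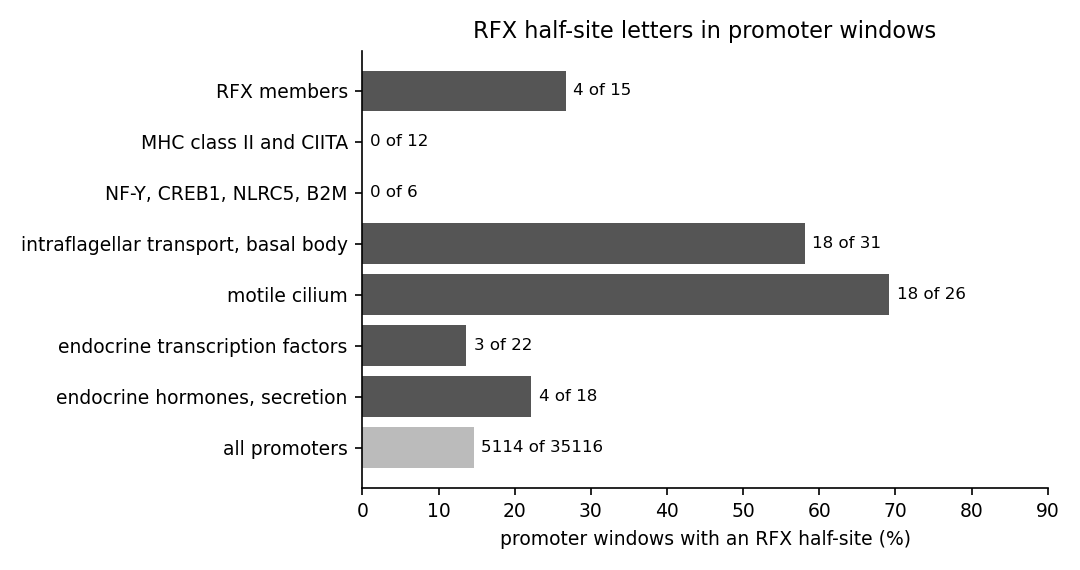
Percentage of promoter windows of 300 bases that hold either RFX half-site on either strand, by gene list, with the number of windows beside each bar. The ciliary lists reach 58.1% and 69.2%, against 14.6% for all promoters.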

How the data were processed

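RNA from 3 DLD-1/DKK1 and 3 DLD-1/Mock samples was measured on the Human Gene 1.0 ST array of Affymetrix, 1 sample per array. The deposited values were log2 expression values that the authors made by robust multichip averaging in R with the affy package; no version was stated. The values, 32321 probe sets on 6 arrays, were used as deposited. Probe sets with 1 gene symbol (19158) were named from the platform annotation, updated through gene numbers (19128 matched); 1388 had several symbols and 11775 none. Each probe set was fitted with limma 3.58.1 in R 4.3.3 (group as the only term, empirical Bayes moderation, 4 residual degrees of freedom), with Benjamini-Hochberg adjustment over all probe sets and a threshold of 0.05; the fit was tested on simulated data. A gene with several probe sets was represented by its brightest. Intervals are 95% and adjusted p-values are from limma.

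The members and lists were chosen with earlier results of these data known. Genes were named by rule: every member and DKK1; of each list, genes past the threshold and up to 2 with the smallest unadjusted p under 0.05; the 5 highest and 5 lowest correlations with RFX3; and 5 measured neighbours on each side. Other genes named (CIITA, FOXJ1, TEKT1, IFT81, CCNO, RFX8, ARID2, EPCAM, KRT20 and PTPRC) and the split by half-site and by brightness were chosen after values were seen. Alternatives were quantile, median and cyclic loess scaling, brighter or annotated probe sets only, other variance settings, array weights, a replicate block and leaving out each array. Precision is limited by the number of arrays. The methods describe separate dishes of each line, so p-values measure the spread between dishes. Replicate lines were not measured, so DKK1 cannot be told apart from other differences between the DKK1 and Mock lines. Figures were drawn with matplotlib 3.10.9.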

Additional observations from a re-analysis of the deposited data

How the results depend on the processing

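RFX3 kept its direction in all 15 alternative settings, with differences of 0.456 after quantile normalisation, 0.466 after median centring and 0.459 after cyclic loess, and of 0.402 to 0.435 with each array left out. It stayed past the threshold in 4 of the 15: 1 member was past it under quantile normalisation, brighter probe sets, annotated probe sets and array weights. The count was 0 under median centring, cyclic loess, the trended robust prior, no moderation, the replicate block and with each array left out (0 to 0). RFX3 passed the brightness filter only through DLD-1/DKK1, so its call among brighter probe sets is no further support. The cut lay near 6.81, above its Mock values (6.69 to 6.72) and below its DKK1 values (7.07 to 7.14). The count of probe sets past the threshold, 28, became 17 after median centring, 66 among brighter and 98 among annotated probe sets, 53 with the trended robust prior, 1 without moderation, 59 with array weights, 1 with the replicate block, and 2 to 6 with an array left out (6 without Mock 2). Listed genes past the threshold stayed at 0. The replicate numbers did not pair the arrays (correlations of deviations 0.105, 0.008 and -0.137, with 0 pairs closest to their own number), so the block is only an alternative.

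Among neighbours, VLDLR-AS1 took the other sign with quantile normalisation (0.0157), median centring (0.0276), cyclic loess (0.0239), array weights (0.0238) and without DKK1 1 (0.0330) or Mock 2 (0.0328), with a range of -0.0778 to 0.0330 over the arrays left out. GLIS3 did so with quantile normalisation (0.0070), median centring (0.0195) and cyclic loess (0.0114), and SLC1A1 with quantile normalisation (-0.000662) and without DKK1 2 (-0.0330), with a range of -0.0330 to 0.0781 over the arrays left out. RFXAP reached -0.00127 with array weights and -0.0369 without Mock 2. The cause was not tested. Median centring moved the median difference of all probe sets by 0.0524.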
